A study of Mus musculus with 38 samples.

Results

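The caspases and inflammasome sensors described here are 8 genes: the inflammatory caspases Casp1, Casp4 and Casp12, the apoptotic caspases Casp6 and Casp8, the adaptor Pycard, and the sensors Nlrp3 and Nlrp6. They were chosen by name, and each name matched 1 of the 46078 gene rows in the deposited count files. RNA was sequenced from isolated intestinal epithelial cells of C57BL/6 mice, with 1 library per animal and 38 libraries in all; the series text calls the tissue colon. KO mice (Hk2 ∆IEC) carried a floxed Hk2 allele and Cre recombinase driven by the Villin promoter, and their WT littermates (Hk2 fl/fl) carried the floxed allele without a deletion named in the labels. The groups were WT on day 0 (n = 4), KO on day 0 (n = 5), WT on day 3 (n = 7), KO on day 3 (n = 8), WT on day 7 (n = 7) and KO on day 7 (n = 7). Mice of days 3 and 7 had received 1.5% dextran sodium sulfate (DSS), a polymer that injures the colon lining, in drinking water for that many days, and day 0 mice were untreated. DSS mice were male and 10 to 12 weeks old. The labels do not give the sex of the day 0 mice, or say whether they came from the younger basal cohort (9–11 weeks) or the aged one (86–92). The Villin promoter is active in the intestinal epithelium, so any other cells in a preparation would keep intact Hk2 alleles.

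Inflammasomes are protein complexes in which a sensor such as NLRP3 or NLRP6 gathers the adaptor ASC, the product of Pycard, which in turn binds and activates caspase-1. Caspase-1 cleaves the precursors of the cytokines IL-1β and IL-18 and opens gasdermin D pores in the cell membrane. Caspase-11, the product of mouse Casp4, binds bacterial lipopolysaccharide in the cytosol and cleaves gasdermin D, while caspase-8 starts apoptosis downstream of death receptors and holds necroptosis in check. In the gut, epithelial cells use these proteins to expel infected cells and to release IL-18, and myeloid cells are the best known source of NLRP3.

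Libraries held 10.5 to 60.6 M counts. Day 0 libraries carried another library prefix, and 71 histone genes took 0.266 to 0.413% of their counts against 0.012 to 0.0541% in the libraries of days 3 and 7, so day 0 and library series cannot be told apart. Levels are given as CPM, the count per M counts of a library after TMM scaling. That scaling moves 2 libraries the most: d0_KO_32 had a factor of 0.516 and d3_WT_381 one of 0.674, so their levels by total count are lower by those factors. Of Hk2, the targeted gene, the day 0 libraries of WT had 337 ± 89.4 CPM (SD, n = 4) and those of KO had 71.8 ± 29.7 CPM (SD, n = 5). Single libraries are called by their labels, which give day, genotype and animal. The one labelled d3_KO_345 had 440 CPM of Hk2, above the highest of the WT day 3 libraries at 224 CPM, and the results that it moved are given without it as well. On day 3 the log2 fold change of Hk2 was -0.27 ± 0.33 (SE) with that library and -0.74 ± 0.18 (SE) without it, and neither passed (edgeR adjusted p = 0.802 and 0.77). Over both DSS days it was -0.75 ± 0.25 (SE; adjusted p = 0.112) with the library and -1.0 ± 0.19 (SE; adjusted p = 0.0498) without it. On day 7 Hk2 was at 331 ± 122 CPM in WT and 139 ± 69.6 CPM in KO (SD, n = 7 each; edgeR adjusted p = 0.291). The 8 epithelial markers (Epcam, Krt20, Vil1 and others) summed to 8710 CPM or more in every library. The 6 leukocyte markers summed to 8.82 to 64.6 CPM on days 0 and 3 and to 49 to 252 CPM on day 7, and the 8 neutrophil markers to at most 39.9 CPM before day 7 and to 33.4 to 1596 CPM on day 7. In bulk RNA, more cells of a type and more RNA per cell cannot be told apart.

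The sequences before the transcription starts are shown for the 4 genes with the highest log2 fold changes from day 3 to day 7 in both genotypes, since the text returns to these genes most often. Each line gives the 250 bases before the first start that RefSeq lists on GRCm38.p6, read 5′ to 3′. For all 4 genes that start lies inside the gene as counted, so the windows reach into it. For Nlrp3 only the last base of the window, 59541568, does so. Capitals mark matches to the 10-letter NF-kB consensus or to the interferon regulatory factor core AANNGAAA on either strand.
Casp4, chr9:5308599-5308848, plus strand: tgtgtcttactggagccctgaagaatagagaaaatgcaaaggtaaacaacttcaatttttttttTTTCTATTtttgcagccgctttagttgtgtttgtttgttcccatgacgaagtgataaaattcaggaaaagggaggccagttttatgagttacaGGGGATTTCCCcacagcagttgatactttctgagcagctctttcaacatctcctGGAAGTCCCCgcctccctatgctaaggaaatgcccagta
Casp12, chr9:5345226-5345475, plus strand: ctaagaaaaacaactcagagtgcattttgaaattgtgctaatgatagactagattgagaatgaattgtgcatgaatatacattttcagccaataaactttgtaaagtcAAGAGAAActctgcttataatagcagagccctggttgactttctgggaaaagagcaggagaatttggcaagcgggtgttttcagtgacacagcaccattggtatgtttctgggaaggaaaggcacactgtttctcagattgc
Casp8, chr1:58802252-58802501, plus strand: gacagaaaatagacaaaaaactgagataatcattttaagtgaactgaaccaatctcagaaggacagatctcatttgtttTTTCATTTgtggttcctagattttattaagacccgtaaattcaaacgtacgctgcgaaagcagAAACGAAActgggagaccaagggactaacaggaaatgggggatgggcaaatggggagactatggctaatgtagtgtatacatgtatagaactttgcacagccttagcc
Nlrp3, chr11:59541319-59541568, plus strand: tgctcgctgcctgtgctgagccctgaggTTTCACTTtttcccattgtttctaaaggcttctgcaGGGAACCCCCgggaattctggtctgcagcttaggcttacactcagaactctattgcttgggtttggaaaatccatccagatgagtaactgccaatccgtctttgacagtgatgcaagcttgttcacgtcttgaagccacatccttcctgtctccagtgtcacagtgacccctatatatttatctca

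The NF-kB consensus, bound by the transcription factor that drives many inflammatory genes, was found before 2 of the 8 genes, Casp4 and Nlrp3. It was found in 7.03% of 27025 such windows, 1 per gene. Before Casp4 it matched at 93 and 92 bases before the start, where matches on both strands overlap, and again at 39 bases. The core AANNGAAA was found before 5 of the 8 genes (Casp4, Casp8, Casp12, Nlrp3 and Pycard) and in 21.6% of all windows. The STAT motif TTCNNNGAA matched before Casp12 alone among the 8, at 102 and 36 bases, and in 7.14% of windows, and the AP-1 motif TGANTCA matched before Nlrp6 alone, at 140 bases, and in 6.85%. These matches describe letters and were not tested as binding sites.

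**Figure D1:**
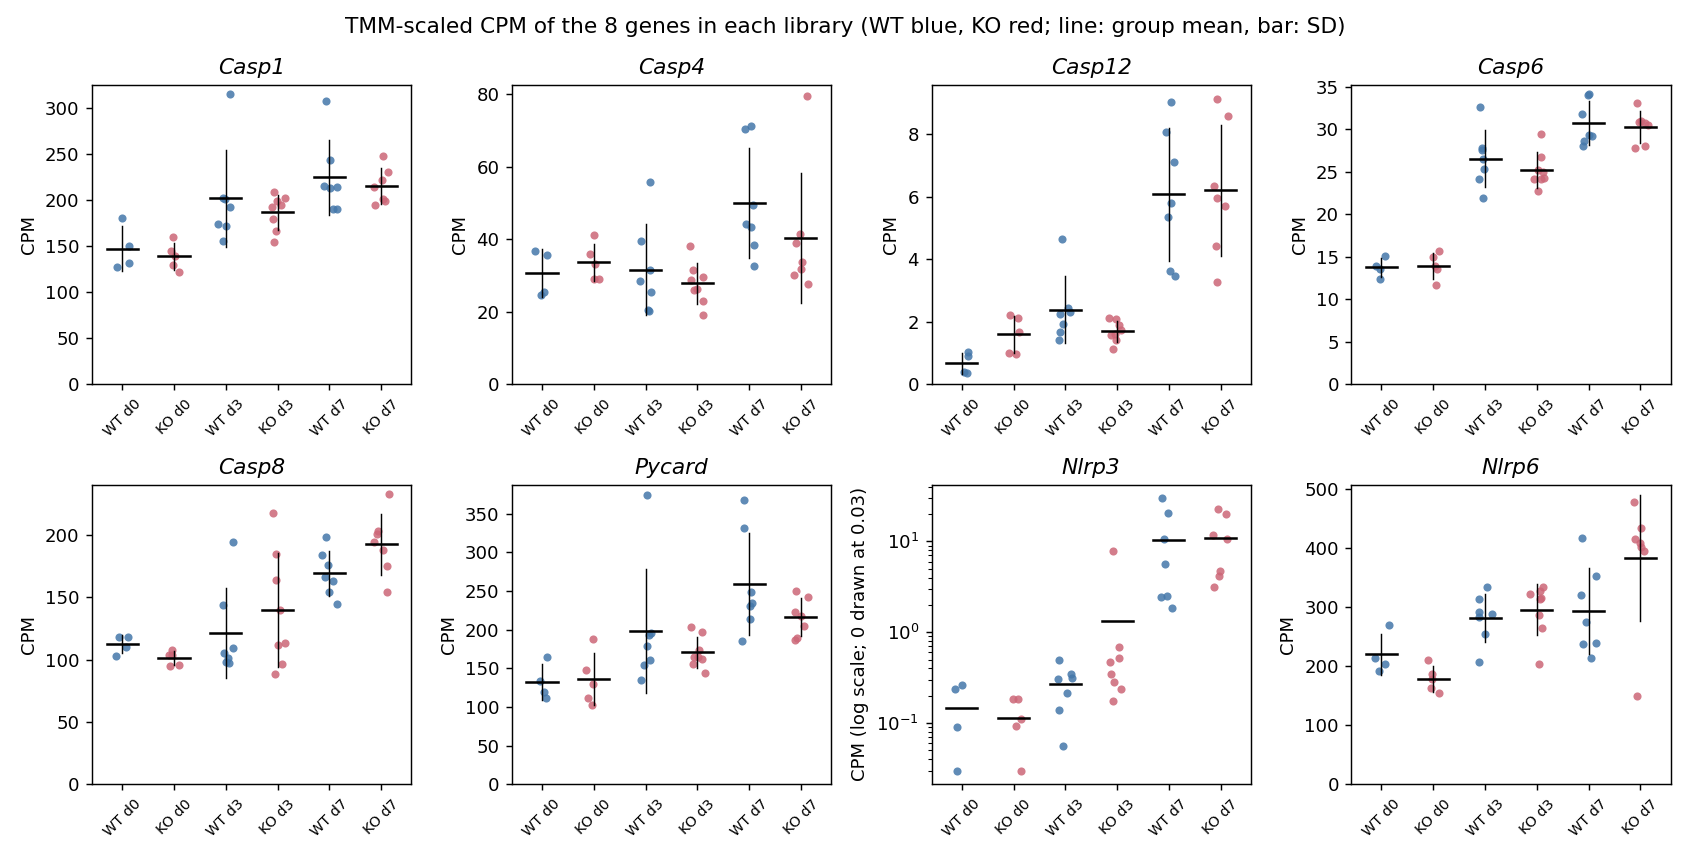
Levels of the 8 genes in each library as TMM-scaled CPM, by genotype and day (d0, d3, d7). Each point is 1 library, the horizontal line is the group mean and the vertical bar the SD; the Nlrp3 panel has a log axis and no SD bar, and libraries with no Nlrp3 count are drawn at 0.03. All 14 day 7 libraries have at least 1.84 CPM of Nlrp3, and of the other 24 only d3_KO_345, at 7.92 CPM, reaches that level.

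Most of the 8 genes were higher on day 7 of DSS than on day 0, with Nlrp3 and Casp12 changing the most. Day and library series cannot be told apart in that comparison, nor in any other step from day 0 given below. Between the DSS days only Nlrp3 and Casp12 were called in both genotypes. None of the 8 was called between KO and WT. From day 3 to day 7, 3 of 8 were called in WT and 4 of 8 in KO, all higher, where 19.3% of all genes tested were called in each genotype (10.6% higher in WT and 10.5% in KO). The median log2 fold change of the 8 was 0.45 in WT and 0.42 in KO, against 0.013 and -0.0067 over all genes. From day 0 to day 3, 2 of 8 were called in WT against 46% of all genes (20.4% higher), and 5 of 8 in KO against 46.3% (22.6% higher and 23.7% lower), of which Casp4 was lower (-0.40 ± 0.14 SE; edgeR adjusted p = 0.0313). Without d0_KO_60, d0_KO_32 or d0_KO_24, or d3_KO_385, that Casp4 call was lost, with adjusted p up to 0.106. It was also lost in edgeR without the filter on low counts (adjusted p = 0.0667) and in the fit of all 38 libraries (adjusted p = 0.163). With the small intestine marker score as a covariate it was lost too (-0.30, edgeR adjusted p = 0.29). From day 0 to day 7, 7 of 8 were called in each genotype, all higher, against 56.9% of genes in WT (27.8% higher) and 54.6% in KO (27.3% higher). The gene left out was Nlrp6 in WT and Casp4 in KO (0.16 ± 0.24 SE; adjusted p = 0.6). No interaction of genotype with the step from day 3 to day 7 was called, for the 8 genes or for any other (0% of 16371), and none of the 8 had an unadjusted p under 0.05 there (2.69% of all genes). The interactions with the steps from day 0 to day 3 and from day 0 to day 7 called 0 of the 8 as well, beside 0% and 0.00531% of all genes, and 1 and 3 of the 8 had an unadjusted p under 0.05, beside 13.5% of all genes in each.

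Casp1, Casp4 and Casp12 lie in a row on the plus strand of chromosome 9 in the coordinates of the files: Casp1 at 5298517 to 5307265, Casp4 at 5308828 to 5336783 and Casp12 at 5345430 to 5373032. No other protein-coding gene of the files lies between them, and the gaps are 1562 and 8646 bases. Despite this, their levels differed widely. Per kilobase of counted length, Casp1 was at 98.3 CPM per kb in WT on day 0, Casp4 at 8.28 and Casp12 at 0.176.

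Casp12, which belongs to the inflammatory caspases by sequence and has been linked to endoplasmic reticulum stress, rose from day 3 to day 7 in both genotypes. The WT libraries of day 3 ranged from 1.41 to 4.66 CPM (median 2.26) and those of day 7 from 3.48 to 9.04 CPM (median 5.81). The log2 fold change was 1.38 ± 0.28 (SE; edgeR adjusted p = 0.00314), and 5 of 7 day 7 libraries were above every day 3 library. In KO, day 3 ranged from 1.13 to 2.13 CPM (median 1.68) and day 7 from 3.27 to 9.13 CPM (median 5.95). Here the groups did not overlap, and the log2 fold change was 1.87 ± 0.21 (SE; edgeR adjusted p = 2.84e-05). The share of all genes whose groups did not overlap was not computed, for this step or for those below. The calls held when each library was left out in turn, with adjusted p up to 0.00873 in WT and 0.000121 in KO.

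Before DSS, Casp12 was at the low end of what these libraries resolve. The 4 WT libraries of day 0 had 0.411, 0.911, 0.35 and 1.02 CPM, from 5 to 51 counts each. The 5 KO libraries had 0.971, 2.22, 2.12, 1.01 and 1.67 CPM, from 11 to 37 counts each, and 3 of them were above every WT library. The difference between genotypes had an unadjusted p of 0.0122 and did not pass (log2 fold change 1.17 ± 0.40 SE; edgeR adjusted p = 0.371). From day 0 to day 3 Casp12 rose in WT by 1.63 ± 0.39 (log2, SE; edgeR adjusted p = 0.0038), with no overlap between the groups, whereas in KO the log2 fold change was -0.026 ± 0.24 (SE; adjusted p = 0.94). The test of that difference in an edgeR interaction model gave -1.68 ± 0.44 (SE), unadjusted p = 0.000909 and adjusted p = 0.178, so the genotypes were not shown to differ in this step.

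Casp4, the caspase-11 gene, had few differences that passed. It was lower on day 3 than on day 0 in KO, a call that several of the fits given above lost. It was higher on day 7 than on day 0 in WT, while neither step from day 3 to day 7 passed. On day 0 the WT libraries had 24.7, 36.9, 25.4 and 35.8 CPM and the KO libraries 33.1, 36.1, 29, 29.1 and 41.1 CPM. On day 3, WT ranged from 20.3 to 55.9 CPM (median 28.5) and KO from 19.2 to 38.1 CPM (median 27.6). On day 7, WT ranged from 32.8 to 71.4 CPM (median 44.3) and KO from 27.6 to 79.6 CPM (median 33.8), and these groups overlapped those of day 3. The log2 fold change from day 3 to day 7 was 0.68 ± 0.24 (SE) in WT and 0.54 ± 0.21 (SE) in KO, just short of the threshold in both (edgeR adjusted p = 0.0565 and 0.08). From day 0 to day 7 Casp4 rose in WT (0.63 ± 0.22 SE; adjusted p = 0.0281), a call lost without d0_WT_31, d0_WT_43 or d7_WT_393 (adjusted p up to 0.0851).

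Single libraries carried much of the spread of Casp4. The highest WT library of day 3, d3_WT_381 at 55.9 CPM, was after TMM scaling also the highest there for Casp1, Casp6, Casp12, Pycard and the summed epithelial markers (18207 CPM). By total count it was the highest for Casp12 (3.14 CPM, next 2.77) and Pycard (252, next 221), but not for Casp1 (212, against 229 in d3_WT_486) or Casp4 (37.7, against 44.8), and it was the lowest for Casp6 (21.9). Without it Casp4 passed from day 3 to day 7 in WT (log2 fold change 0.87; edgeR adjusted p = 0.00644), as did Pycard (0.61; adjusted p = 0.00806) and Casp6 (adjusted p = 0.0175). d7_KO_420 had 79.6 CPM of Casp4, against 41.4 CPM in the next library, and the highest neutrophil marker sum of the series at 1596 CPM. Without it the log2 fold change of Casp4 in KO was 0.29 (adjusted p = 0.147). The part of these marker levels in the result was not tested.

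Casp1, the protease that matures IL-1β and IL-18, was among the 2 highest of the 8 genes per kilobase in every group, at 92.8 to 150 CPM per kb. The day 0 libraries had 180, 150, 127 and 132 CPM in WT and 145, 160, 122, 129 and 139 CPM in KO. On day 7 the range was 190 to 307 CPM (median 214) in WT and 194 to 248 CPM (median 214) in KO. In both genotypes every day 7 library was above every day 0 library. How many of all genes separated in this way was not computed, and 56.9% (WT) and 54.6% (KO) of all genes were called in this step. The log2 fold change from day 0 to day 7 was 0.53 ± 0.14 (SE) in WT and 0.52 ± 0.085 (SE) in KO (edgeR adjusted p = 0.00684 and 0.00016). Day 3 lay between, at 156 to 315 CPM (median 192) in WT and 154 to 209 CPM (median 193) in KO. The step from day 0 to day 3 passed in KO (0.30 ± 0.089 SE, adjusted p = 0.0116) and not in WT (0.36 ± 0.18 SE, adjusted p = 0.117). In the edgeR fit of all 38 libraries it passed in WT (0.38, adjusted p = 0.0238) and not in KO (0.29, adjusted p = 0.055). With the small intestine marker score as a covariate it also passed in WT alone (edgeR adjusted p = 0.0134, and 0.081 in KO). The interaction of genotype with this step was not called (-0.081 ± 0.19 SE, edgeR adjusted p = 0.885). The step from day 3 to day 7 did not pass in either genotype (0.17 ± 0.16 SE, adjusted p = 0.502, and 0.21 ± 0.074 SE, adjusted p = 0.0575). Without d3_KO_387, d3_KO_392, d7_KO_366 or d7_KO_420 it passed in KO, with adjusted p of 0.041 to 0.0488.

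Pycard, whose product ASC links sensors to caspase-1, was the other of the 2 highest, at 94.4 to 184 CPM per kb. It lies on the minus strand of chromosome 7 at 127992103 to 127993867. On day 0 its level was 165, 119, 134 and 112 CPM in WT and 148, 188, 103, 130 and 111 CPM in KO. By day 7 it was at least 185 CPM (median 234, second highest 331) in WT and 186 to 250 CPM (median 218) in KO. The day 7 WT libraries were all above those of day 0, while in KO 6 of 7 were, d7_KO_420 at 186 CPM being below d0_KO_32 at 188 CPM. By total count, without TMM scaling, d0_KO_32 had 96.9 CPM. The lowest KO library of day 7 by that measure (d7_KO_420, 165 CPM) was above the highest of day 0 (d0_KO_24, 163 CPM). Pycard rose from day 0 to day 7 in both genotypes (log2 fold change 0.89 ± 0.19 SE in WT and 0.56 ± 0.14 SE in KO; edgeR adjusted p = 0.00132 and 0.00337). From day 3 to day 7 it rose in KO (0.34 ± 0.084 SE; adjusted p = 0.00831), and in WT the value was 0.39 ± 0.22 (SE; adjusted p = 0.23). That KO call was lost in the edgeR fit of all 38 libraries (0.38, adjusted p = 0.0977). The KO call from day 0 to day 7 was lost with the small intestine marker score as a covariate (0.35, edgeR adjusted p = 0.0736).

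Casp6, an executioner caspase that cleaves structural proteins during apoptosis, was higher in the libraries of days 3 and 7 than in those of day 0 in both genotypes, a step in which day and library series cannot be told apart. It lies on chromosome 3 at 129901425 to 129914103. The day 0 libraries had 15.1, 13.9, 13.6 and 12.4 CPM in WT and 11.7, 15, 13.9, 15.7 and 13.6 CPM in KO. On day 3 the libraries ranged from 21.9 to 32.6 CPM (median 26.5) in WT and from 22.7 to 29.5 CPM (median 24.6) in KO, so no library of day 3 overlapped day 0. The log2 fold change of that step was 0.86 ± 0.12 (SE) in WT and 0.73 ± 0.085 (SE) in KO (edgeR adjusted p = 4.89e-05 and 4.55e-06). On day 7 the range was 28 to 34.1 CPM (median 29.3) in WT and 27.8 to 33.1 CPM (median 30.7) in KO, and the further step from day 3 passed in KO (0.27 ± 0.06 SE; adjusted p = 0.00449) and not in WT (0.23 ± 0.092 SE; adjusted p = 0.0976).

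Casp8, the initiator caspase of death receptor signalling, lies on chromosome 1 at 58795374 to 58847503. It was narrow in range on day 0, at 118, 118, 103 and 110 CPM in WT and 104, 104, 94.5, 95.7 and 108 CPM in KO. Day 3 was more scattered: 97.6 to 194 CPM (median 105) in WT and 88.5 to 218 CPM (median 126) in KO. On day 7 the WT libraries ranged from 145 to 198 CPM (median 166) and the KO libraries from 154 to 233 CPM (median 194). Every day 7 library was above every day 0 library of its genotype, and the log2 fold change was 0.52 ± 0.10 (SE) in WT and 0.82 ± 0.10 (SE) in KO (edgeR adjusted p = 0.000967 and 1.08e-05).

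From day 3 to day 7 Casp8 rose in WT (0.50 ± 0.15 SE; adjusted p = 0.0281), a call that was kept in 7 of the 14 fits that left out 1 library, with adjusted p up to 0.0618. The libraries whose removal ended it were d3_WT_348, d3_WT_352, d3_WT_353, d3_WT_486 and d3_WT_487 and d7_WT_356 and d7_WT_386. In KO the value was 0.47 ± 0.17 (SE; adjusted p = 0.0692), and without the library labelled d3_KO_345, the highest of its group at 218 CPM, it was 0.59 (adjusted p = 0.0108). Without d3_KO_388 it also passed (0.53; adjusted p = 0.0442).

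Nlrp3, the sensor of potassium efflux and membrane damage, changed the most of the 8 genes. It lies on chromosome 11 at 59541568 to 59566956. On day 0 it was close to undetected: the WT libraries had 4, 2, 0 and 13 counts and the KO libraries 3, 1, 0, 2 and 1 counts. On day 3 the WT libraries had 0.0555 to 0.494 CPM (median 0.307). The KO libraries of day 3 had 0.177 to 7.92 CPM (median 0.412), the highest being d3_KO_345 and the next 0.689 CPM. On day 7 the WT libraries had 1.84 to 29.8 CPM (median 5.58) and the KO libraries 3.14 to 22.6 CPM (median 10.6), so the 7 animals of a group spread over an order of magnitude in WT.

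From day 3 to day 7 the log2 fold change of Nlrp3 was 5.24 ± 0.70 (SE) in WT, with no overlap between the groups (edgeR adjusted p = 0.000137). In KO it was 3.03 ± 0.80 (SE; adjusted p = 0.0135), and without d3_KO_345 it was 4.82 (adjusted p = 1.46e-05). Against day 0, the pooled counts gave a ratio for day 7 of 60.7 in WT (95% interval 38.8 to 101) and 93.3 in KO (45.2 to 232), intervals that cover counting error only. For day 3 against day 0 the ratio was 1.53 in WT (0.928 to 2.67). In KO it was 13.7 (6.61 to 34.3), of which d3_KO_345 gave 377 of the 484 day 3 counts; that step passed by a small margin (edgeR adjusted p = 0.0497). Without d3_KO_345, d3_KO_351, d3_KO_388 or d3_KO_392, Nlrp3 failed the filter on low counts in that comparison and could not be tested, and without any 1 of the 5 KO day 0 libraries its adjusted p was 0.0706 to 0.113.

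Markers of immune cells moved with Nlrp3. All 6 leukocyte markers, all 8 monocyte and macrophage markers and all 7 neutrophil markers tested (of 8) rose from day 3 to day 7 in both genotypes. The libraries with the highest Nlrp3 on day 7, d7_WT_419, d7_WT_356, d7_KO_420 and d7_KO_422, were also the 2 of each genotype with the highest leukocyte marker sums, at 252, 190, 215 and 187 CPM. On day 3, d3_KO_345 had the highest leukocyte (64.6 CPM), monocyte and macrophage (158 CPM) and neutrophil (39.9 CPM) sums of the 15 libraries. With the leukocyte score as a covariate, the log2 fold change of Nlrp3 from day 3 to day 7 was 1.35 in WT (adjusted p = 0.161) and -1.43 in KO (adjusted p = 0.559). In that model 43 genes of the whole table were called in WT and 1 in KO, and the score itself did not overlap between the days (0.023 to 2.17 against 2.54 to 4.86 in WT, 1.67 to 2.87 against 3.17 to 4.80 in KO), so day and score cannot be told apart.

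**Figure D2:**
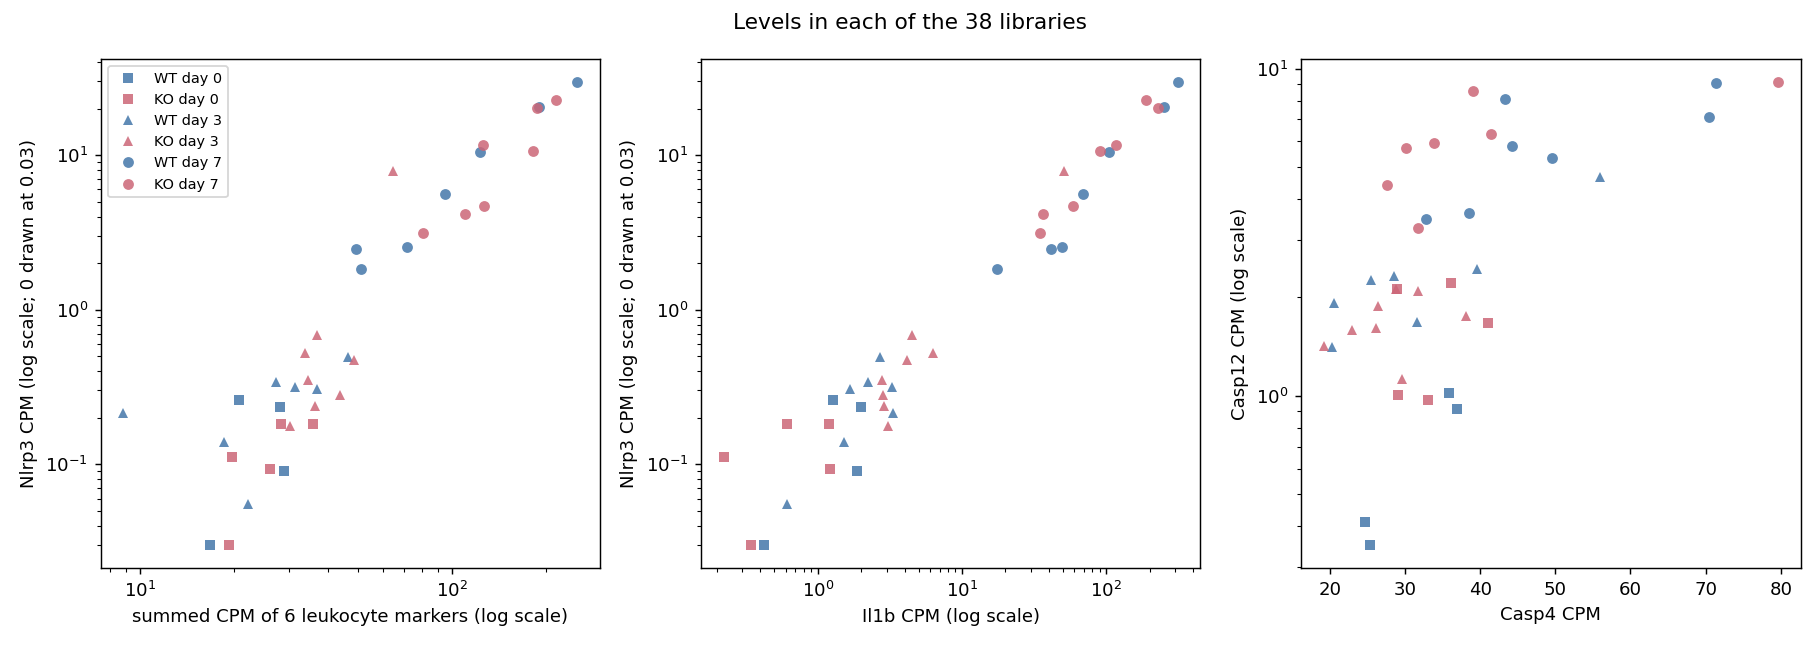
Left and middle, Nlrp3 CPM in each of the 38 libraries against the summed CPM of 6 leukocyte markers and against Il1b CPM, on log axes with libraries at 0 drawn at 0.03. Right, Casp12 CPM (log axis) against Casp4 CPM (linear axis). Blue is WT and red KO, squares are day 0, triangles day 3 and circles day 7; the red triangle at 7.92 CPM of Nlrp3 is d3_KO_345, beside the day 7 libraries in the first 2 panels.

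Nlrp6, a sensor of the intestinal epithelium that has been linked to mucus secretion, lies on chromosome 7 at 140920902 to 140929192 and was abundant before DSS. The day 0 libraries had 214, 270, 203 and 192 CPM in WT and 210, 178, 162, 155 and 186 CPM in KO, and 4 of 5 KO libraries were below every WT library (log2 fold change -0.27 ± 0.12 SE; unadjusted p = 0.0471, edgeR adjusted p = 0.473). On day 3 the range was 206 to 333 CPM (median 288) in WT and 203 to 333 CPM (median 314) in KO. On day 7 it was 213 to 416 CPM (median 275) in WT and 149 to 478 CPM (median 408) in KO, where 6 libraries had 395 CPM or more and d7_KO_420 had 149 CPM.

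In KO, Nlrp6 rose from day 0 to day 3 (0.61 ± 0.12 SE; edgeR adjusted p = 0.000538) and was higher on day 7 than on day 0 (0.99 ± 0.22 SE; adjusted p = 0.00156). In WT neither step passed, with 0.26 ± 0.14 (SE; adjusted p = 0.138) and 0.34 ± 0.18 (SE; adjusted p = 0.122). The difference between genotypes in the step from day 0 to day 7 was 0.68 ± 0.29 (SE; unadjusted p = 0.027, adjusted p = 0.31 in the edgeR interaction model). Without d7_KO_420 it was 0.79, with an edgeR adjusted p of 0.0493. Fits of this interaction that left out 1 library in turn called 0 to 279 of all genes, against 1 with every library. Without d7_KO_420 the step from day 3 to day 7 in KO moved from 0.37 (adjusted p = 0.177) to 0.51 (adjusted p = 0.00152).

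None of the 8 genes passed in any comparison of KO with WT. On day 0, where 0.0335% of 14944 genes tested were called, 7 of the 8 could be tested and 2, Casp12 and Nlrp6, had an unadjusted p under 0.05 (10.5% of all genes had). On day 3, with 0.00647% of genes called, the count was 0 of 8, and 1 gene, Nlrp3, had an unadjusted p under 0.05 (7.88% of all genes). Its log2 fold change was 2.27 ± 0.82 (SE; edgeR adjusted p = 0.623), and it was 0.48 (adjusted p = 0.791) without d3_KO_345. On day 7, with 0.00642% called, the count was again 0 of 8, with none at an unadjusted p under 0.05 (12.9% of all genes). Over both DSS days in a model with day, 0.0122% of genes were called and 0 of the 8, with 1 of the 8 and 21.5% of all genes at an unadjusted p under 0.05. Pycard had the smallest unadjusted p there, 0.0388, at a log2 fold change of -0.25 ± 0.12 (SE; adjusted p = 0.213), and -0.13 without d3_WT_381. DESeq2 also called 0 of the 8 in each of these 4 comparisons.

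The intervals say how large a difference could have gone unseen. On day 7 the 95% interval of the log2 fold change, KO against WT, was -0.18 to 0.13 for Casp6, -0.29 to 0.17 for Casp1, -0.023 to 0.39 for Casp8 and -0.56 to 0.038 for Pycard. It was wider for Nlrp6, at -0.063 to 0.83, for Casp4, at -0.82 to 0.21, and for Casp12, at -0.52 to 0.58. For Nlrp3 it ran from -1.28 to 1.43, so differences of more than 2-fold in either direction remained within it. Leaving out d7_KO_420 moved Casp4 from -0.30 to -0.56 (adjusted p = 0.0934) and Nlrp6 from 0.38 to 0.52 (adjusted p = 0.0722).

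**Figure D3:**
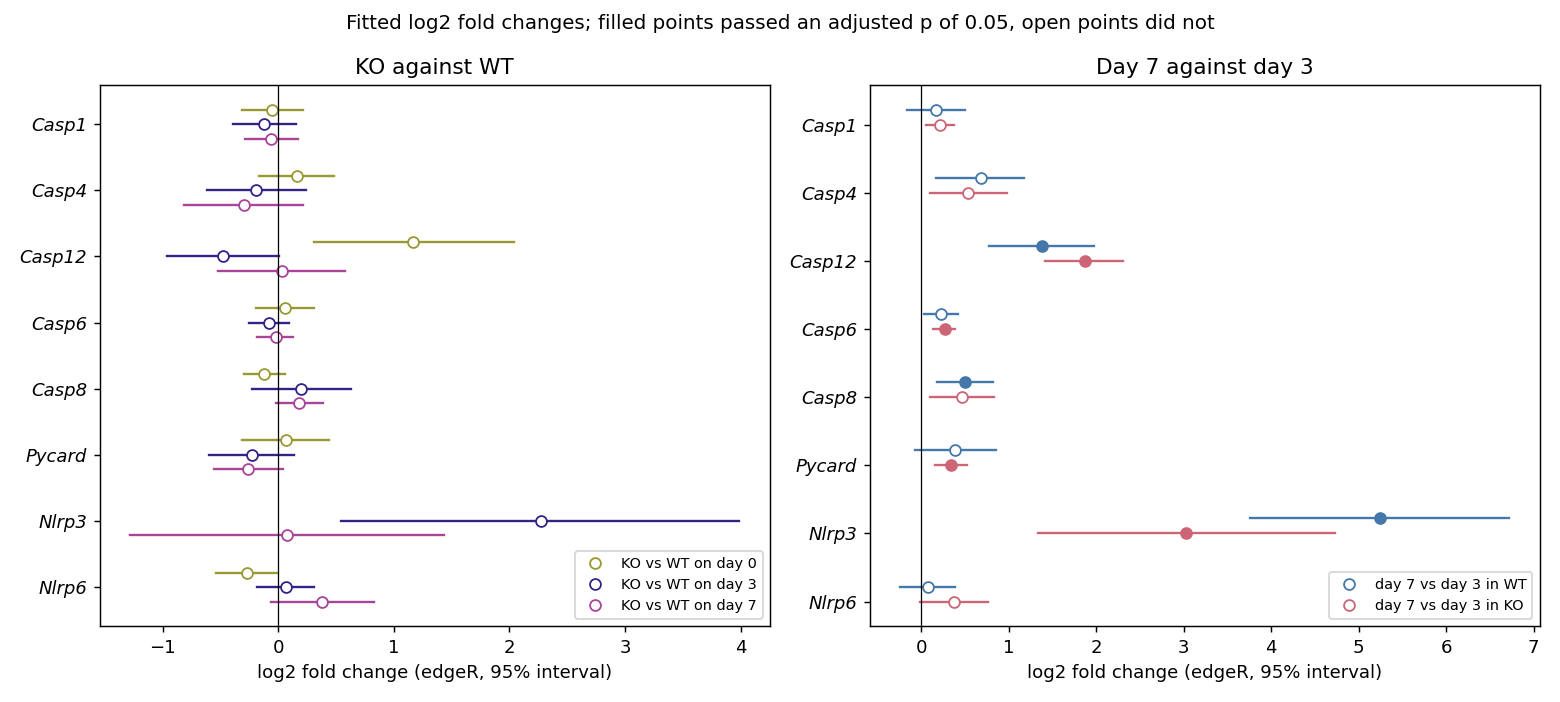
Fitted log2 fold changes of the 8 genes with 95% intervals, KO against WT on each day (left) and day 7 against day 3 in each genotype (right). Filled points passed an adjusted p of 0.05; all points on the left are open, and Nlrp3 on day 0 was not tested. On the right, Casp12 and Nlrp3 are filled in both genotypes.

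The order of the 6 group means differed between the genes. For Casp1, Casp6, Casp8, Casp12, Nlrp3 and Pycard the day 0 means were lowest and the day 7 means highest, with day 3 between. Neighbours in the order overlapped for every gene, apart from the step between KO on day 0 and KO on day 3 for Casp6 (14 and 25.2 CPM). For Nlrp3, KO on day 3 overlapped WT on day 7 through d3_KO_345 alone (7.92 CPM, next 0.689), as the lowest WT day 7 library had 1.84 CPM. The share of all genes with such overlaps was not computed, nor was the share whose libraries separated fully between days. Casp4 was lowest in KO on day 3 (27.8 CPM) and highest in WT on day 7 (50 CPM). Nlrp6 was lowest in KO on day 0 (178 CPM) and highest in KO on day 7 (383 CPM).

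Genes that act with the 8 were followed in 4 lists. Of 8 genes of cytokines, cytokine inhibitors and gasdermins, not all of them products of inflammatory caspases, 5 rose from day 3 to day 7 in each genotype. Of all genes, 10.6% rose in WT and 10.5% in KO. The largest changes were those of Il1a, the alarmin IL-1α, Il1b, and Il33, an alarmin of barrier cells. Il1b rose by 5.76 ± 0.64 (SE) in WT and 3.47 ± 0.73 (SE) in KO on the log2 scale (edgeR adjusted p = 6.07e-05 and 0.00293). It went from 2.19 ± 1 CPM on day 3 to 121 ± 114 CPM on day 7 in WT (SD, n = 7 each). Il1a rose by 6.29 ± 0.92 and 4.95 ± 0.83 (SE), and Il33 by 2.19 ± 0.49 and 2.37 ± 0.50 (SE). Without d3_KO_345 the KO values were 4.85 for Il1b, 5.78 for Il1a and 2.74 for Il33, and 5 of the 8 were called higher as before. Over all genes, the KO fits that left out 1 library in turn called 2470 to 3518 in either direction, against 3008 with every library. The other 2 were Il18bp and Gsdmd, the pore-forming substrate of caspases 1 and 11, named here after their values were seen. Gsdmd had 127 ± 22.9 CPM on day 3 and 216 ± 46.4 CPM on day 7 in WT (SD, n = 7 each; 0.78 ± 0.14 SE; adjusted p = 0.0016), and 0.54 ± 0.14 (SE; adjusted p = 0.0126) in KO.

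Of 14 other sensors, 11 were tested in WT and 12 in KO from day 3 to day 7, and 3 rose and 1 fell in each, beside 19.3% of all genes called. Mefv, which encodes pyrin, rose by 4.94 ± 0.63 (SE) in WT and 2.81 ± 0.76 (SE) in KO, and Naip5, a sensor of flagellin, by 0.31 ± 0.089 and 0.30 ± 0.068 (SE). Naip1 rose in WT (0.49 ± 0.10 SE) and Nlrp12 in KO (2.93 ± 0.74 SE), and Nlrp10 fell in both (-1.01 ± 0.27 and -1.44 ± 0.33 SE). Nlrp12 had 0 to 19 counts per KO library on day 3 and 11 to 47 on day 7, so its fold depends on few reads. Without d3_KO_345 the KO values were 4.45 for Mefv and 5.62 for Nlrp12, and 5 sensors were called higher, among them Nlrc4 (0.45) and Naip1 (0.33). Of 9 inflammasome partners, Gbp5, a guanylate binding protein, rose in both (2.93 ± 0.67 and 3.25 ± 0.55 SE), Nek7, which binds NLRP3, rose in WT (0.31 ± 0.084 SE) and Irgb10 in KO (2.04 ± 0.44 SE). Without d3_KO_345, 4 partners were called higher in KO, Gbp2 (2.27) and Tlr4 (0.58) being added. Of 11 apoptosis adaptors and inhibitors 1 rose in each genotype, a share near that of all genes: Apaf1 of the apoptosome (0.75 ± 0.19 and 0.47 ± 0.086 SE), joined by Cflar (0.24) in KO without d3_KO_345. The genes added without that library are named after their values were seen. Calls over all genes also moved as single libraries were left out in KO (2470 to 3518), and the added calls were not tested against that movement. Apaf1 had fallen from day 0 to day 3 by 0.81 ± 0.10 (SE) in WT and by 0.47 ± 0.087 (SE) in KO (log2; edgeR adjusted p = 1.21e-05 and 0.000461). Its log2 fold change from day 0 to day 7 was -0.054 in WT and 0.015 in KO (adjusted p = 0.862 and 0.903).

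No gene of the 4 lists was called between KO and WT on day 0, 3 or 7 or over both DSS days, nor on day 3 or over both DSS days without d3_KO_345. Il18, a caspase-1 substrate named here after its values were seen, was over the DSS days at -0.50 ± 0.13 (SE; unadjusted p = 0.000692, edgeR adjusted p = 0.0786). It was at 132 ± 35 CPM in WT and 85.7 ± 21.3 CPM in KO on day 7 (SD, n = 7 each), and on that day alone the log2 fold change was -0.63 ± 0.19 (SE; adjusted p = 0.291).

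Within groups, the 8 genes did not vary as 1 block. Correlations were computed over the 29 libraries of days 3 and 7 on deviations of log2 CPM from the group mean, and are descriptions: libraries share depth and cell composition, and no p is given. Casp1 and Pycard varied together (Pearson r = 0.77), as did Casp4 and Casp12 (0.72) and Casp1 and Casp6 (0.69). Casp4 and Nlrp6 varied in opposite directions (-0.53). In that pair d7_KO_420 was far from its group for both genes (79.6 CPM of Casp4, next 41.4, and 149 CPM of Nlrp6, next 395). In the pair of Casp1 and Pycard, so was d3_WT_381 (315 CPM of Casp1, next 202, and 374 CPM of Pycard, next 195). The r of these pairs without those libraries was not computed. Nlrp3 had r between -0.45 and 0.39 with the other 7 (-0.58 to 0.16 without d3_KO_345), and followed the leukocyte score (r = 0.79, Spearman's rho 0.81; r = 0.83 without the 2 libraries farthest from the median score). Casp8 followed the epithelial score (r = 0.84, rho 0.80; 0.83 without 2 libraries), and had r = 0.14 with the leukocyte score. With the neutrophil score it had r = 0.51 (rho 0.51, and r = 0.38 without d3_KO_345). With the monocyte and macrophage score it had r = 0.29 (0.11 without that library).

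**Figure D4:**
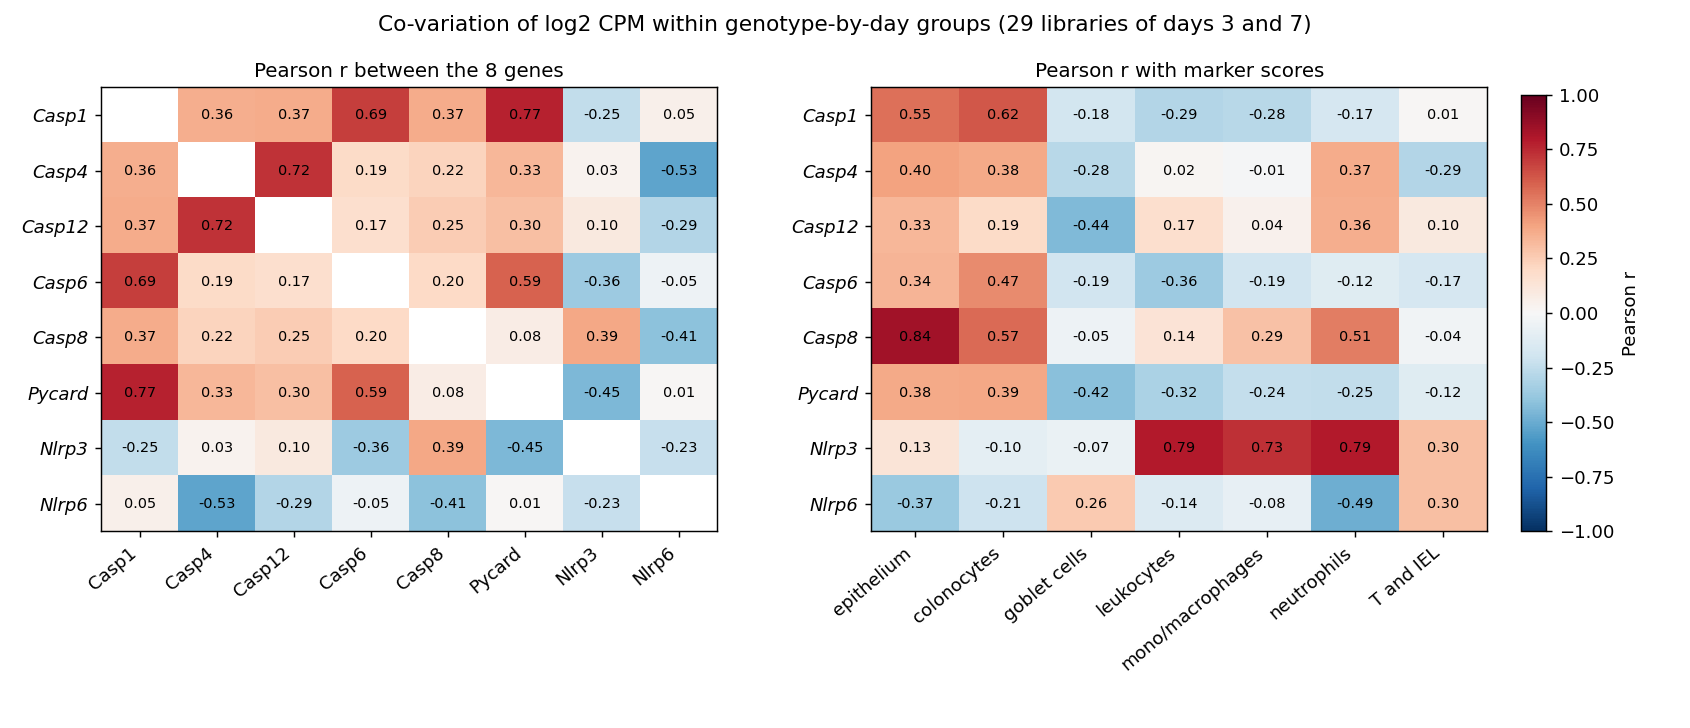
Pearson r of deviations of log2 CPM from genotype-by-day group means over the 29 libraries of days 3 and 7, between the 8 genes (left) and between each gene and the mean log2 CPM of marker lists (right; T and IEL are T and intraepithelial lymphocytes). Red is positive and blue negative. The Nlrp3 row is high with leukocytes, monocytes and macrophages, and neutrophils (0.79, 0.73 and 0.79), and the Casp8 row with epithelium (0.84).

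By the same measure, each gene was compared with 12880 genes of at least 1 CPM, and the 3 most alike were noted. The nearest to Nlrp3 were Il1b (r = 0.96), Ptafr and Ptgs2 (0.93 each), and r was 0.88 to 0.92 without the 2 libraries with the largest Nlrp3 deviations. Il1b is the cytokine that the NLRP3 inflammasome matures, Ptafr the receptor of platelet-activating factor and Ptgs2 the inducible cyclooxygenase. For Casp8 they were Stk25 (0.93), Map2k3 (0.92) and Plek2 (0.91), and for Casp1 Psme2 (0.92), Idnk (0.91) and Uqcrb (0.90). For Pycard they were Dnajc19 (0.93), Ndufs3 and Ndufs8 (0.91 each), the last pair being subunits of respiratory complex I. Casp4 was nearest to Eif2s2 (0.86), Ric8 and Slc51b (0.83 each), and Casp12 to Ms4a18 (0.87), Trafd1 and Pdgfc (0.74 each). Casp6 was nearest to Fam104a (0.82), Lyrm1 (0.80) and Stard3nl (0.79), and Nlrp6 to Gm8989 (0.92), Lig4 (0.91) and Zfp846 (0.89). Without the 2 libraries with the largest deviations of the gene compared, r was lower. It was then 0.85 to 0.88 for Casp8, 0.80 to 0.89 for Pycard, 0.76 to 0.80 for Casp1 and 0.74 to 0.82 for Nlrp6. For Casp4 it was 0.72 to 0.79, for Casp12 0.69 to 0.84 and for Casp6 0.69 to 0.73.

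Compared per kilobase, the 8 genes kept nearly the same order in all 6 groups. Pycard and Casp1 came first, Nlrp6 and Casp8 next at 35 to 75.3 CPM per kb, then Casp4 at 7.5 to 13.5 and Casp6 at 2.46 to 5.5. Casp12 and Nlrp3 were last in every group. Nlrp3 was below Casp12 on days 0 and 3 and above it on day 7, at 2.58 against 1.58 CPM per kb in WT and 2.71 against 1.61 in KO, where the ranges of single libraries are wide. Among the sensors, Nlrp6 in WT went from 43.3 CPM per kb on day 0 to 57.7 on day 7, and remained above Nlrp3 in every group.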

How the data were processed

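The authors deposited raw counts per gene, made with featureCounts 1.6.2 per the file headers with the strand of reads ignored, while the submitters' processing notes name Trim Galore, STAR, featureCounts 1.5.2 and the build GRCm38. No exon of the 8 genes overlaps an exon of another gene in the files. The 2 lanes of each of the 38 libraries were summed. Groups were compared in edgeR 4.0.16 (R 4.3.3) by its quasi-likelihood test, after TMM scaling and filterByExpr, fitting only the groups compared. A gene was called where its p, adjusted by Benjamini-Hochberg over all genes tested, was under 0.05. The SE is the size of the log2 change over the root of F. CPM in the text are TMM-scaled over all 38 libraries. P-values measure the spread between animals. A level of 3 counts corresponds to 0.0495 to 0.286 CPM, and floors and ratio intervals cover counting error only. Alternatives were DESeq2 1.42.0 size factors, the DESeq2 Wald test, no filter, a fit of all 38 libraries, leukocyte and small intestine marker scores as covariates, leaving out each library, and CPM of the total count. The interactions of genotype with the steps from day 0 were added after the data were seen. Named were the 8 genes, Hk2, up to 3 called genes per list and direction, and the 3 most alike genes. A further list of genes is not reported here. Gsdme and Irgb10 are Dfna5 and Gm12250 in the files, by RefSeq synonyms. The members and lists were chosen with earlier results of these data known. The procedure was tested on simulated counts.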

Additional observations from a re-analysis of the deposited data

Results flagged for a closer look

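In 48 sets of libraries, 1 per gene and group, 6 had a library farther from the rest than the 95% limit of Dixon's test; chance gives about 1 in 20. d3_WT_381 gave 3 of them, with 315 CPM of Casp1 (next 202), 4.66 CPM of Casp12 (next 2.45) and 374 CPM of Pycard (next 195). By total count, without TMM scaling, it had 212 CPM of Casp1, below 229 in d3_WT_486, 3.14 CPM of Casp12 (next 2.77) and 252 CPM of Pycard (next 221). d7_KO_420 gave another 2, with 79.6 CPM of Casp4 (next 41.4) and 149 CPM of Nlrp6, the lowest of its group (next 395). The last was 7.92 CPM of Nlrp3 in the library labelled d3_KO_345 (next 0.689).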

How the results depend on the processing

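No paired analysis was possible because the animal numbers in the labels are not shared between groups. The count of called genes among the 8 stayed at 0 in every comparison of KO with WT under every alternative, while over all genes the DSS days gave 2 calls, 566 with the DESeq2 Wald test, 159 in the fit of all 38 libraries and 1 to 555 with 1 library left out. From day 3 to day 7, the main fits called 3002 of all genes in WT and 3008 in KO. WT counts among the 8 were 5 in the fit of all 38 libraries (4297 of all genes) and 0 with the leukocyte covariate (43 of all genes). KO counts were 7 with the DESeq2 Wald test (3525 of all genes) and 0 with that covariate (1 of all genes), where Nlrp3 in KO changed sign (-1.43). From day 0 to day 3, the main fits called 7893 of all genes in WT and 7409 in KO. WT counts were 4 in the fit of all 38 libraries (9412 of all genes) and 4 with the small intestine covariate (7453). KO counts were 3, 3 and 2 with all 38 libraries, the leukocyte and the small intestine covariates, beside 8442, 4463 and 4195 of all genes. From day 0 to day 7 the leukocyte covariate left 3 in WT and 1 in KO. Over all genes it left 4299 in WT and 874 in KO, against 9919 and 8938 in the main fits. The leukocyte score did not overlap between these days, at 0.87 to 1.63 against 2.54 to 4.86 in WT. In KO it was 0.92 to 1.75 against 3.17 to 4.80. Day and score therefore cannot be told apart here, as from day 3 to day 7. With 1 library left out, counts ranged from 2 to 6 (WT) and 4 to 6 (KO) from day 3 to day 7, 2 to 3 and 3 to 5 from day 0 to day 3, 6 to 7 and 7 to 7 from day 0 to day 7, and 0 to 1 for the interaction with the step from day 0 to day 7. Scaled by total counts, WT day 0 levels of Casp6 and Casp8 were 15.1 and 124 CPM. In d0_KO_32, whose TMM factor was 0.516, that scaling took Casp1 from 160 to 82.5 CPM, Pycard from 188 to 96.9, Casp6 from 15 to 7.72 and Casp12 from 2.22 to 1.14. The leukocyte covariate ended calls from day 3 to day 7 at log2 fold changes of 0.51 for Casp8 (0.50 without it) and 1.11 for Casp12 (1.38) in WT, and of 0.34 for Casp6 (0.27), 0.42 for Pycard (0.34) and 1.46 for Casp12 (1.87) in KO. Low counts limit Nlrp3 and Casp12 on day 0. The cause of these changes was not tested.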
